A study of Homo sapiens with 14 samples.

Results

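hsa-miR-1246, hsa-miR-1290 and hsa-miR-1275 are 3 short human microRNAs (miRNAs), chosen by name and followed through both count tables of the study, each of which lists 2588 mature miRNAs. The study looked for internal N7-methylguanosine (m7G) in miRNAs of A549 cells, an established human lung adenocarcinoma line grown in culture with no other treatment. Total RNA of all 14 libraries was decapped, so that the m7G of mRNA caps was removed before either pulldown. In BoRed-seq, the 2 Red libraries came from RNA reduced with NaBH4 and the 2 Ctrl libraries from RNA given acid-quenched NaBH4. Both kinds of RNA then went through low pH, which leaves a site without a base where a reduced m7G stood, through labeling with a biotin-carrying aldehyde probe, and through a streptavidin pulldown. In m7G-RIP-seq, 5 IP libraries came from heat-denatured RNA immunoprecipitated with an anti-m7G antibody, and 5 Input libraries from the RNA before immunoprecipitation. The labels do not say whether replicates came from separate cultures, so p-values measure the spread between these libraries, which may be technical.

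A miRNA is cut from a hairpin precursor, loaded into an Argonaute protein and led to target mRNAs by pairing of its seed, bases 2 to 8 from the 5′ end. miR-1246 and miR-1290 are miRNAs known from tumor cells and from circulating RNA of cancer patients, and miR-1246 is known to share its sequence with the U2 small nuclear RNA (snRNA), the spliceosomal RNA that recognizes the intron branch point. Both assays read a methylated guanine, so the mature RefSeq sequences (GRCh38.p14) are shown first, with the seed in capitals.
hsa-miR-1246: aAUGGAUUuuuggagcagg
hsa-miR-1290: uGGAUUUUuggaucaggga
hsa-miR-1275: gUGGGGGAgaggcuguc

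hsa-miR-1246 and hsa-miR-1290 shared an unbroken run of 12 bases, positions 3 to 14 of the first and 1 to 12 of the second, but because it is shifted by 2 bases their seeds differ. Laid over each other at that shift, 16 of 17 bases were identical. hsa-miR-1275 shared no run longer than 4 bases with either. It was the most guanine-rich of the 3 miRNAs, with 10 G in 17 bases (58.8%) and a run of 5 G in its seed, whereas the other members each had 7 G in 19 bases (36.8%). A lower G percentage was found in 96.8% of the 2281 miRNAs with a sequence for hsa-miR-1275, and in 74.4% for each of the other 2.

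Where these sequences lie in the genome bears on what a count of them is. The mature hsa-miR-1246 sequence matched hg38 exactly at 20 loci. One was its own gene MIR1246 (chr2:176601024-176601042, minus strand, GENCODE 44), which lies opposite the lncRNA LINC01117, and the remaining 19 were exons of U2 snRNA genes and pseudogenes on the same strand as the U2 RNA. Of these, 13 were in the cluster on chromosome 17 that holds RNU2-1 (match at chr17:43233866-43233884, minus strand), within the gene CCDC200, and 6 were elsewhere. The base after the match was a at MIR1246 and g at all 19 U2 loci, as the stretches below show, with the bases of the mature miRNA in capitals.
MIR1246: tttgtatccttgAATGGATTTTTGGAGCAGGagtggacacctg
RNU2-1: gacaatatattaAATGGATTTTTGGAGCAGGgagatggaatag

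By the methods of the study, reads that fitted more than 10 loci were not kept, and a read equal to the whole mature hsa-miR-1246 fits 20. The deposited counts do not give the reads behind them, so whether those of hsa-miR-1246 came from MIR1246 or from U2 snRNA cannot be told apart.

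hsa-miR-1290 matched exactly at 2 loci, and none was in a U2 gene. They were MIR1290 (chr1:18897078-18897096, minus strand), inside ALDH4A1 and on its strand, and an intron of SIL1 (chr5:138958668-138958686), on the opposite strand of that gene. The matches of hsa-miR-1275 included its intergenic gene MIR1275 (chr6:34000018-34000034, minus strand) and 4 loci on chromosome 21. Each of the 4 ended on the first base of a hairpin gene of hsa-miR-6724-5p, MIR6724-1 to MIR6724-4. For 3 of the 4, a 45S pre-rRNA gene began 673 to 692 bases further on. The deposited counts do not give the reads behind them. Whether those of hsa-miR-1275 came from MIR1275 or from its other matches therefore cannot be told apart. The stretches around both kinds of locus are shown, with the miRNA itself in capitals. The base before it is t at both, and the base after it is t at MIR1275 and g at the other locus.
MIR1275: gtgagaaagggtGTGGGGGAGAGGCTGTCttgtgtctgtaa
Locus before MIR6724-1: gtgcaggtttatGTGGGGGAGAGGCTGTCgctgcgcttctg

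The libraries differed in depth in the direction of the comparisons. Total counts over all miRNAs were 4678102 to 5874405 in Ctrl, 242085 to 277498 in Red, 7097379 to 14874685 in Input and 2854811 to 6452759 in IP. The 4 miRNAs used as markers of epithelial A549 cells (miR-21-5p, miR-31-5p, miR-200c-3p and miR-141-3p) summed to between 381892 and 463443 CPM (counts in 1000000 of the library total) in Input and 46981 to 63165 in IP. They summed to between 790088 and 804780 in Ctrl and 267458 to 269306 in Red. hsa-miR-21-5p carried these sums (log2 -2.67 for Red against Ctrl and -3.32 for IP against Input), whereas hsa-miR-200c-3p was higher in Red (log2 2.89, DESeq2, adjusted p = 1.65e-10) and at a log2 of -0.05 for IP against Input.

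Markers of other cell types were scarce, but those of blood, muscle and neural cells took larger shares in Red, where 3 counts were worth 10.8 to 12.4 CPM. The 6 blood markers summed to 1.53 to 1.71 CPM in Ctrl and 28.9 to 72.1 in Red, with miR-451a at 0 in Red. The 3 muscle markers summed to 0.340 to 3.42 CPM in Ctrl and 41.3 to 43.2 in Red, with miR-133a-3p and miR-206 at 0 in both groups. The neural marker miR-124-3p was at 0 in Ctrl and at 12.4 to 46.8 CPM in Red. In Input and IP these lists summed to at most 2.69 and 3.41 CPM for blood, 6.20 and 22.2 for muscle, and 1.21 and 2.32 for neural cells. The liver marker miR-122-5p was at 0 in all 14 libraries. The part of these shifts in the results was not tested.

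In BoRed-seq, hsa-miR-1275 was higher in both Red libraries than in both Ctrl libraries. Its raw counts were 7 and 14 in Ctrl 1 and 2, and 36 and 19 in Red 1 and 2, although the Red libraries held far fewer counts in all. Scaled by size factors (medians of ratios, which take the typical miRNA as unchanged), these were 1.94 and 5.21 normalized counts in Ctrl and 133 and 46.5 in Red, with means of 3.57 ± 2.31 (SD, n = 2) and 89.9 ± 61.4 (SD, n = 2). The groups did not overlap, while the replicates of each group lay more than 2-fold apart. Over all miRNAs in the fit, 34.9% had both Red libraries above both Ctrl libraries.

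The log2 fold change of hsa-miR-1275, Red against Ctrl, was 4.66 ± 0.75 (SE), a 25.3-fold difference (DESeq2 Wald test, adjusted p = 2.27e-09). It was the only member with at least 10 counts in 2 libraries, so 1 of 1 tested members was called enriched, in a comparison that called 32.2% of all tested miRNAs enriched. The fold depended on single libraries, with a log2 of 3.87 without Red 1 and 5.48 without Ctrl 2. Scaling by library totals raised the median log2 of all miRNAs in the fit from -0.32 to 0.76 and that of hsa-miR-1275 to 5.72.

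hsa-miR-1246 was near the limit of detection in Ctrl and plainly counted in Red. It had 1 count in each Ctrl library, which is below the 3 counts that a reading of 0 would still allow, and 7 and 11 counts in Red 1 and 2. In shares these were 0.170 and 0.214 CPM in Ctrl and 28.9 and 39.6 CPM in Red. The 95% Wilson intervals of the shares, which cover counting error alone, did not overlap either: the highest upper bound in Ctrl was 1.21 CPM and the lowest lower bound in Red 14.01 CPM. Among the miRNAs in the fit, which leaves hsa-miR-1246 out, 34.9% had both Red libraries above both Ctrl libraries. How many had separate intervals was not counted.

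The miRNA missed the count minimum, since 1 library reached 10 counts, so no test in the main comparison applied to it. Pooled over each group, 18 counts against 2 gave a ratio of 83.6 on the size-factor scale, with an exact 95% counting interval of 20.01 to 743. On library totals the ratio was 183, with an interval of 43.8 to 1624. An exact permutation test of 2 against 2 libraries cannot give a p below 0.333.

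hsa-miR-1290 was barely counted. It had 0 counts in both Ctrl libraries and in Red 1, and 1 count in Red 2. A count of 0 allows a share of up to 0.511 and 0.641 CPM in Ctrl 1 and 2 but of up to 12.4 CPM in Red 1, so a level in Red well above that in Ctrl was not detectable at this depth.

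**Figure D1:**
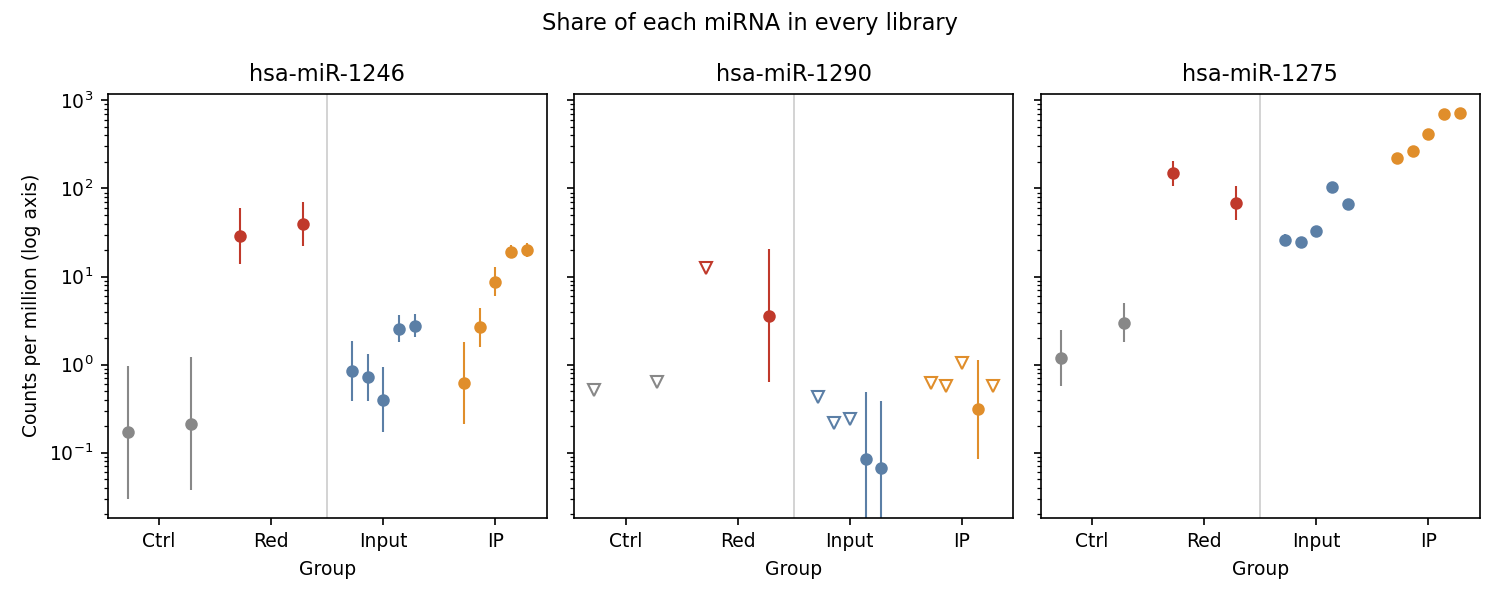
Shares, in CPM, of the 3 miRNAs in every library, by group, on a log axis, with replicates in order of number from left to right. Dots are libraries with at least 1 count and their bars 95% Wilson intervals, and open triangles mark libraries at 0 counts at the share that 3 counts would be. The 2 Red libraries of hsa-miR-1246 and hsa-miR-1275 lie above both Ctrl libraries, the 5 IP libraries of hsa-miR-1275 lie above all 5 Input libraries, and those of hsa-miR-1246 overlap with Input.

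In m7G-RIP-seq, hsa-miR-1275 was higher in every IP library than in every Input library. It had 210, 222, 290, 750 and 525 normalized counts in Input 1 to 5, and 1415, 1752, 2499, 4560 and 4865 in IP 1 to 5. The lowest IP library thus lay above the highest Input library, which held for 18.2% of all miRNAs tested. Input averaged 399 ± 233 normalized counts and IP 3018 ± 1599 (SD, n = 5 each).

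The log2 fold change, IP against Input, was 2.92 ± 0.45 (SE), or 7.56-fold (DESeq2, adjusted p = 7.29e-10). Libraries of the same number gave ratios of 6.73, 7.91, 8.62, 6.08 and 9.27, all in 1 direction and within a narrow range. As a share of the library total, which every other miRNA enters, hsa-miR-1275 was higher by 3.24 on the log2(CPM + 1) scale. A two-sided exact permutation test that left the replicate numbers aside gave p = 0.00794, the smallest that 5 against 5 libraries allow. With same-numbered libraries as pairs, the share was higher in IP in 5 of 5 pairs, and an exact sign-flip permutation test gave p = 0.0625, the smallest that 5 pairs allow, so that it cannot pass 0.05.

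For hsa-miR-1246 the IP and Input libraries overlapped. Its raw counts were 6, 10, 5, 30 and 41 in Input 1 to 5, and 3, 14, 25, 124 and 106 in IP 1 to 5. After scaling these were 6.78, 6.35, 3.50, 18.6 and 21.9 normalized counts in Input, and 3.96, 17.2, 52.7, 126 and 135 in IP. IP 3, 4 and 5 lay above every Input library, whereas IP 1 lay below 4 of the 5 and IP 2 below Input 4 and 5.

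Input averaged 11.4 ± 8.23 normalized counts and IP 66.8 ± 60.5 (SD, n = 5 each), and DESeq2 called the difference, with a log2 fold change of 2.54 ± 0.81 (SE), or 5.81-fold (adjusted p = 0.00387). With hsa-miR-1275, 2 of 2 tested members were therefore called enriched, in a comparison that called 27.3% of all miRNAs enriched. Libraries of the same number gave ratios of 0.583, 2.71, 15.0, 6.74 and 6.15, with replicate 1 on 3 and 6 counts in the opposite direction to the other 4. In its share of the library the difference was 1.74 on the log2(CPM + 1) scale and did not pass (two-sided exact permutation test, p = 0.0873). With same-numbered libraries as pairs it was higher in IP in 4 of 5 (exact sign-flip permutation test, p = 0.125). Without IP 1 the unpaired test gave 2.29 with an unadjusted p of 0.0317.

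The replicate numbers mattered for the level of both miRNAs. Chi-square per degree of freedom was taken between libraries of 1 group, over the miRNAs above a minimum count in the pair. It was 30.8 to 190 within replicates 1 to 3 or within 4 and 5, and 547 to 1734 between these sets. The source of this split is not given in the sources used here. hsa-miR-1246 averaged 5.54 normalized counts in Input 1 to 3 and 20.3 in Input 4 and 5, and 24.6 and 130 in the same sets of IP libraries. hsa-miR-1275 averaged 241 and 637 in these sets of Input, and 1889 and 4713 in those of IP.

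Within the sets, the enrichment of hsa-miR-1275 hardly moved, at a log2 of 2.93 ± 0.23 (SE) in replicates 1 to 3 alone and 2.85 ± 0.18 (SE) in replicates 4 and 5 alone. That of hsa-miR-1246 was 2.65 ± 0.50 (SE) in replicates 4 and 5 (DESeq2, adjusted p = 3.11e-07), and 2.10 ± 1.16 (SE) in replicates 1 to 3, where the call was lost (adjusted p = 0.117). Its counts there were 5 to 10 in Input and 3 to 25 in IP.

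**Figure D2:**
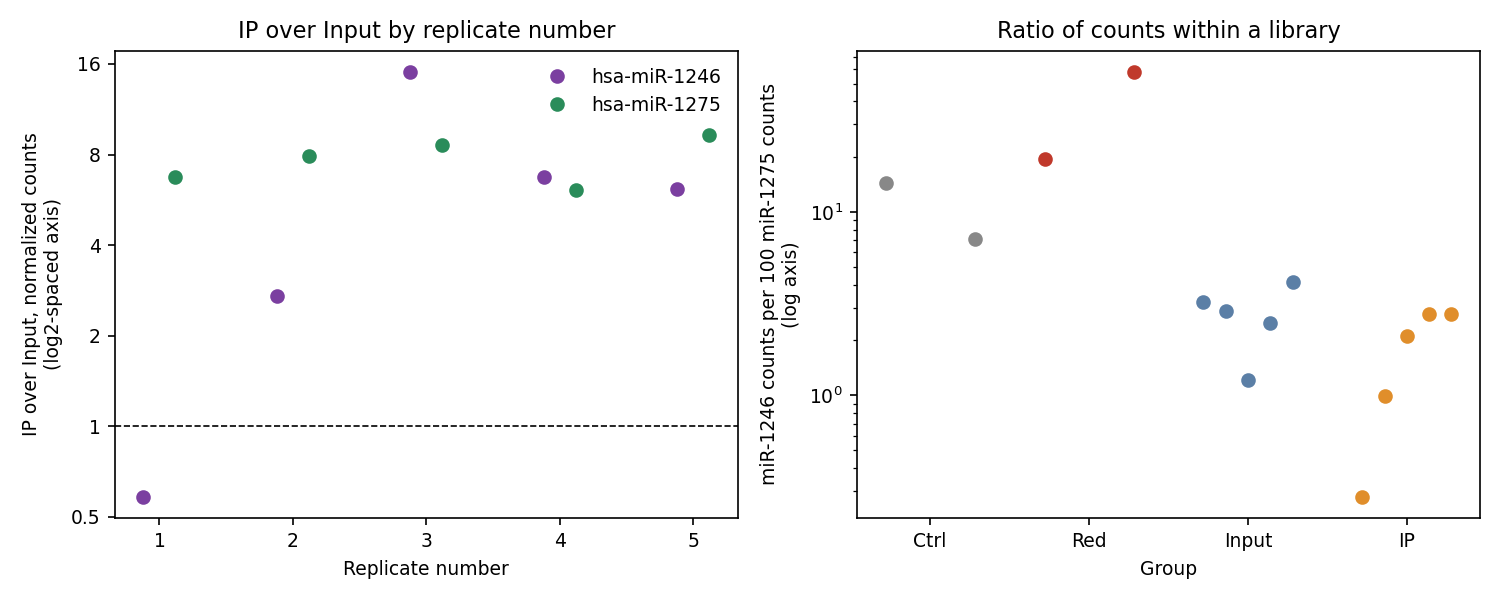
Left, IP over Input of hsa-miR-1246 and hsa-miR-1275 in normalized counts, by replicate number, on a log2-spaced axis with a dashed line at equal levels. Right, counts of miR-1246 per 100 counts of miR-1275 in every library by group, on a log axis. The ratios of hsa-miR-1275 lie between 6.08 and 9.27, those of hsa-miR-1246 between 0.583 and 15.0, and the 2 Red libraries hold the most miR-1246 per miR-1275.

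hsa-miR-1290 had 1 count each in Input 4 and 5, 2 counts in IP 4, and 0 counts in the other 7 m7G-RIP-seq libraries. In those 7 a count of 0 allows a share of up to 0.215 to 1.05 CPM. Pooled, 2 counts in IP against 2 in Input gave a ratio of 1.93 on the size-factor scale with an exact 95% counting interval of 0.140 to 26.6, so neither enrichment nor depletion could be seen at this depth.

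Set against all miRNAs, hsa-miR-1275 ranked 116th of 670 by mean normalized count in m7G-RIP-seq, and hsa-miR-1246 ranked 419th. By log2 fold change, 23 of the 670 lay above hsa-miR-1275 and 40 above hsa-miR-1246, with a median of 0.02 over all. In BoRed-seq, 41 of 400 miRNAs with an adjusted p had a larger log2 fold change than hsa-miR-1275, with a median of -0.09 over all. Within single libraries hsa-miR-1275 moved from rank 159 to 233 by count in Input to rank 65 to 111 in IP. hsa-miR-1246 held ranks 484 to 807 in Input and 264 to 735 in IP.

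**Figure D3:**
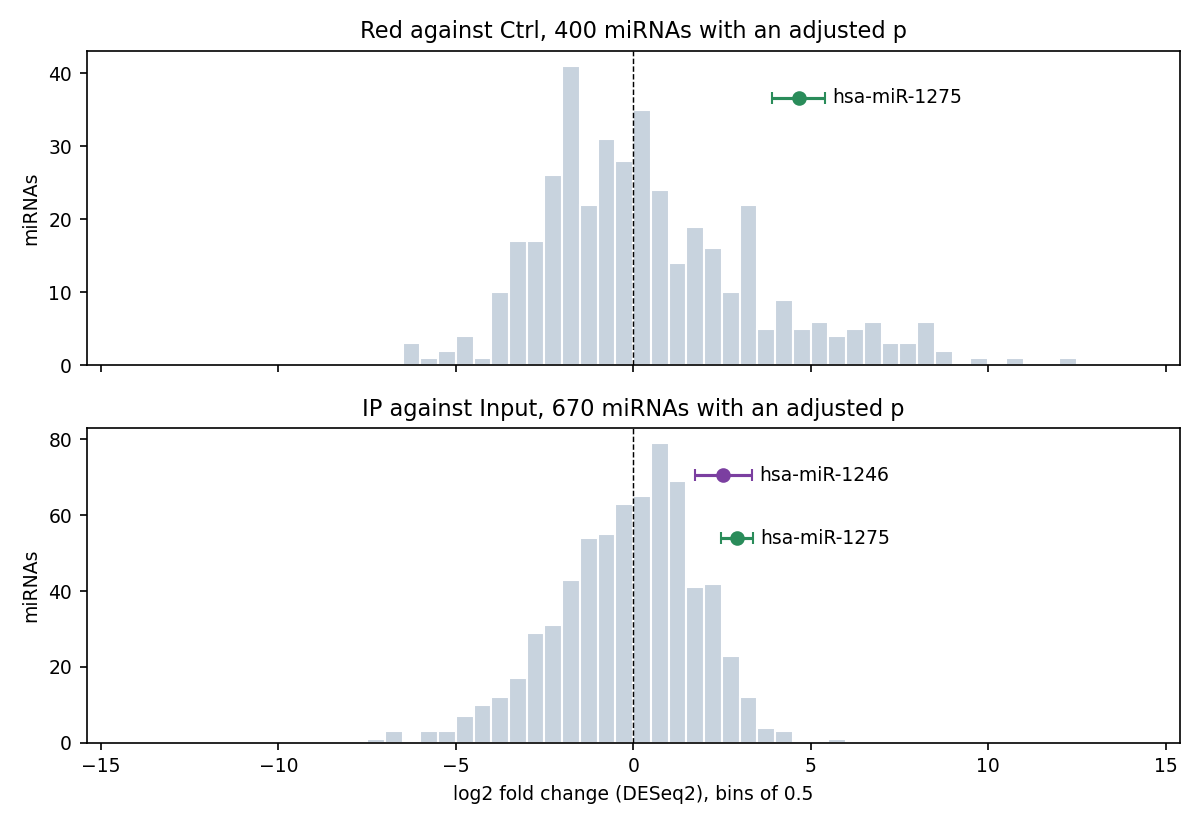
Histograms of the DESeq2 log2 fold changes of all miRNAs with an adjusted p, Red against Ctrl (top, 400 miRNAs) and IP against Input (bottom, 670 miRNAs), in bins of 0.5, with a dashed line at 0. Dots give the tested members with bars of 1 SE, at a height chosen for legibility. hsa-miR-1275 lies at 4.66 in the first and 2.92 in the second, and hsa-miR-1246 at 2.54 in the second, all to the right of most miRNAs.

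hsa-miR-1275 is the only member with a fitted value in both assays. Its log2 fold change was larger in BoRed-seq than in m7G-RIP-seq by 1.75, with a 95% interval of 0.03 to 3.46, and did not pass after adjustment over all miRNAs with both values (two-sided z test on the DESeq2 values, adjusted p = 0.101). Of these miRNAs, 29.4% were called higher in BoRed-seq by the same test. With total-count factors in both fits the difference was 2.52 and passed (adjusted p = 0.00755).

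The levels of the members had different orders over the 4 groups, given here in CPM from tables made separately and with no test. hsa-miR-1275 had its highest level in IP, at 220 to 724 CPM, above Red at 68.5 to 149, Input at 25.0 to 103 and Ctrl at 1.19 to 2.99, of which Red and Input overlap. hsa-miR-1246 had its highest level in Red, at 28.9 to 39.6 CPM, above IP at 0.616 to 20.02, Input at 0.3996 to 2.76 and Ctrl at 0.170 to 0.214, of which IP and Input overlap.

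Within a library, hsa-miR-1275 was counted more often than hsa-miR-1246 in all 14 libraries. A ratio of their counts does not depend on any scaling between libraries, and since a small RNA read covers the whole molecule the counts were not divided by length. There were 14.3 and 7.14 counts of hsa-miR-1246 per 100 of hsa-miR-1275 in Ctrl 1 and 2, and 19.4 and 57.9 in Red 1 and 2. In Input 1 to 5 there were 3.23, 2.87, 1.21, 2.49 and 4.16 per 100, and in IP 1 to 5 there were 0.280, 0.983, 2.11, 2.76 and 2.76. The Input and IP libraries overlapped, and the log2 ratio was lower in IP by 0.96 with no difference past the spread (difference -0.96, two-sided exact permutation test with a pseudocount of 1, p = 0.151, adjusted over 3 pairs of miRNAs p = 0.226, and p = 0.3125 with same-numbered libraries paired). Without Input 3 the difference was -1.21 with an unadjusted p of 0.0476. Both pairs that include hsa-miR-1290 rest on its 0 to 2 counts, so that they follow the pseudocount and the other miRNA (adjusted p = 0.0238 against hsa-miR-1275 and 0.246 against hsa-miR-1246).

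Over the 10 m7G-RIP-seq libraries, the miRNAs whose profile lay closest to that of hsa-miR-1275, by the root mean square difference of mean-centered log2 normalized counts, were hsa-miR-877-5p (0.371), hsa-miR-432-5p (0.416) and hsa-miR-654-5p (0.481), of 669 compared. The closest to hsa-miR-1246 were hsa-miR-200b-5p (0.872), hsa-miR-4731-5p (0.887) and hsa-miR-432-5p (0.916). No miRNA followed hsa-miR-1246 as closely as these followed hsa-miR-1275. The mean normalized counts were 39.1 for hsa-miR-1246 and 1709 for hsa-miR-1275, and the part of counting noise in this difference was not tested. hsa-miR-1275 came 14th in nearness to hsa-miR-1246, and hsa-miR-1246 came 58th in nearness to hsa-miR-1275, at the distance of 1.02 that they share.

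The seeds of hsa-miR-1246 and hsa-miR-1290 occurred in no other miRNA with a sequence, and that of hsa-miR-1275 occurred in 1, hsa-miR-4665-5p. Its counts were 0 and 1 in Ctrl and 1 and 5 in Red, too few for the BoRed-seq fit. In m7G-RIP-seq Input held 15.7 ± 5.47 and IP 42.5 ± 19.7 normalized counts of it (mean ± SD, n = 5 each), with a log2 fold change of 1.44 ± 0.45 (SE, DESeq2, adjusted p = 0.0034).

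hsa-miR-1275 belongs to the miRNAs with a run of 4 or more G, 269 of the 2281 with a sequence. In BoRed-seq 35 of them were tested, of which 24 were called enriched (68.6%) and 1 depleted (2.86%), with a median log2 fold change of 2.73. Over all tested miRNAs 32.2% were enriched and 27.2% depleted. Of the 320 without such a run 28.1% were enriched, with a median of -0.30. In m7G-RIP-seq 74 were tested, of which 49 were enriched (66.2%) and 5 depleted (6.76%), with a median of 1.47. Over all tested miRNAs 27.3% were enriched and 29.9% depleted. Of the 528 without such a run 23.1% were enriched, with a median of -0.12. A miRNA that met the count minimum through the Red or IP libraries alone could only come out higher in them. These shares and medians are therefore partly set by the filter. How many calls arose in this way was not counted, for the class or for all miRNAs. hsa-miR-1275 lay above the median of its class in both assays. hsa-miR-1246 and hsa-miR-1290 have no such run, their longest being 2 and 3 G.

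Small nucleolar RNAs (snoRNAs) are the guide RNAs of rRNA modification. Since hsa-miR-1246 shares its sequence with a small nuclear RNA, it was set beside 11 miRNA entries known to overlap snoRNAs. Of these, 7 were tested in BoRed-seq, with 6 enriched (85.7%, beside 32.2% of all tested miRNAs) and a median log2 fold change of 3.40. The other one was hsa-miR-664a-3p, at a log2 of -1.73 (DESeq2, adjusted p = 0.123). In m7G-RIP-seq 9 were tested, with 2 enriched (22.2%, beside 27.3% of all), 5 depleted (55.6%, beside 29.9% of all) and a median of -1.99, beside medians of -0.09 and 0.02 for all miRNAs. An entry that met the count minimum through the Red libraries alone could only come out higher in Red. This held for hsa-miR-664b-5p, at no more than 0.372 normalized counts in Ctrl and at least 24.5 in Red. The BoRed-seq share and median are therefore partly set by the filter. Among the most abundant, hsa-miR-3607-3p rose in BoRed-seq from 13.8 ± 1.52 to 146 ± 19.2 normalized counts (SD, n = 2 each, log2 3.40, DESeq2, adjusted p = 5.45e-12). In m7G-RIP-seq it fell from 115 ± 40.9 to 21.7 ± 21.5 (SD, n = 5 each, log2 -2.38, adjusted p = 0.00271).

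hsa-miR-3651 showed the same pair of directions (log2 5.72 for Red against Ctrl and -2.66 for IP against Input, DESeq2, adjusted p = 6.48e-24 and 0.000882), and so did hsa-miR-1291 (2.40 and -1.21, adjusted p = 0.00185 and 0.0189). hsa-miR-664a-5p rose in m7G-RIP-seq (log2 2.70, adjusted p = 2.31e-18) and its partner arm hsa-miR-664a-3p fell (-3.65, adjusted p = 9.95e-12). hsa-miR-1246 was higher in IP than in Input on average, and 1 entry of the list, hsa-miR-664b-5p, was called enriched in both assays.

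The fits under other settings kept the direction of both members. hsa-miR-1275 stayed past the threshold in all of them that retained it. hsa-miR-1246 did so in all m7G-RIP-seq settings that retained it but 1, replicates 1 to 3 alone.

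**Figure D4:**
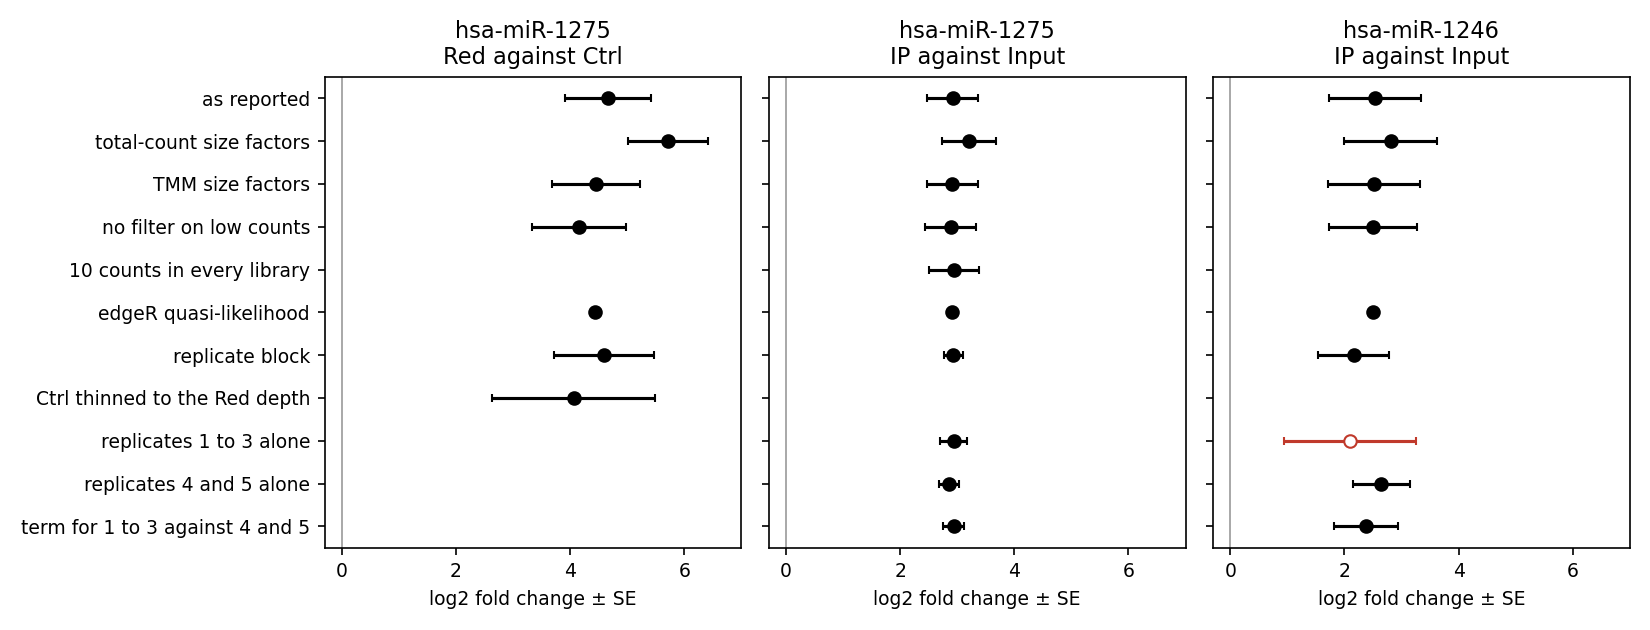
Log2 fold changes ± SE of hsa-miR-1275, Red against Ctrl and IP against Input, and of hsa-miR-1246, IP against Input, as reported and under each other setting. Filled black dots passed an adjusted p of 0.05 and the open red dot did not, edgeR gives no SE, and a gap means that the setting was not run or left the miRNA out. The open red dot is hsa-miR-1246 in replicates 1 to 3 alone, at 2.10.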

How the data were processed

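Small RNA libraries of A549 RNA were sequenced as single-end 50-base reads. The authors trimmed adaptors with Trimmomatic, aligned reads to hg38 and counted them with featureCounts over miRBase 22. Their methods name STAR (end to end, at most 1 mismatch, at most 10 loci per read, at least 16 bases), whereas the submitters' processing notes list Bowtie2. The deposited values are raw counts per mature miRNA, neither normalized nor pooled, with 0 unassigned columns.

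Groups came from the sample labels. A miRNA was tested where 2 BoRed-seq or 5 m7G-RIP-seq libraries held at least 10 counts of it (453 and 670 miRNAs). DESeq2 1.42.0 (R 4.3.3, Wald test, median-of-ratios factors, Benjamini-Hochberg adjustment, threshold 0.05) was fitted to each assay separately. It was run beforehand on simulated data with planted changes and no split between replicate sets, which does not show how it performs on these libraries. DESeq2 gave no adjusted p to 53 BoRed-seq miRNAs. Alternatives were total-count and TMM factors, other filters, edgeR 4.0.16, a replicate block, thinned Ctrl counts, subsets of replicates and leaving out each library. Shares and ratios were compared with two-sided exact permutation tests over libraries (SciPy 1.17.1) and, added after seeing the data, over pairs. Library totals of 242085 to 14874685 set the precision, and intervals cover counting error only. Same-numbered Input and IP libraries deviated together from their group means (correlations of 0.146 to 0.387). Differently numbered libraries were not compared, and the split between replicates 1 to 3 and 4 and 5 was not removed. These correlations therefore cannot show that the numbers pair libraries, and the tests over pairs assume it. All replicates differed beyond sampling noise. Sequences came from RefSeq (GRCh38.p14, 2281 of 2588 names matched), and exact matches were sought on the main chromosomes of hg38. Of the matches of hsa-miR-1275, 1 is not reported here.

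The members, lists and alternatives were chosen with earlier results of these data known. Other miRNAs were named by rule: the 3 nearest profiles per tested member, those sharing a seed, and in each assay the 3 most abundant of the snoRNA-derived list. hsa-miR-664b-5p and hsa-miR-6724-5p were named after their values were seen.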

Additional observations from a re-analysis of the deposited data

Results flagged for a closer look

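The normalized count of hsa-miR-1290 in IP 4, 2.03, stood apart from the other 4 IP libraries, which were all at 0. It rests on 2 counts. With 4 libraries at 0, the gap takes up the whole range of the group whatever the remaining count is, so the usual rate of about 1 in 20 groups marked by chance does not apply.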

How the results depend on the processing

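hsa-miR-1275 kept its direction and its call under all 10 alternatives for Red against Ctrl (log2 3.87 to 5.72) and all 19 for IP against Input (2.70 to 3.28). hsa-miR-1246 kept its direction for IP against Input under 18 alternatives (2.10 to 2.91) and lost its call in replicates 1 to 3 alone (2.10), the fit with the fewest counts of it. Demanding 10 counts in every library removed hsa-miR-1246 from m7G-RIP-seq and hsa-miR-1275 from BoRed-seq. With the replicate block the log2 was 2.16 for hsa-miR-1246 and 2.93 for hsa-miR-1275 in m7G-RIP-seq, and 4.60 for hsa-miR-1275 in BoRed-seq. Same-numbered BoRed-seq libraries had a correlation of deviations of 0.110, and whether the numbers pair them is not known either. The block changed no call of a member in these fits. With same-numbered libraries as pairs, the share of hsa-miR-1275 kept its difference of 3.24 but not its pass, since 5 pairs cannot give a p below 0.0625. Total-count factors took the difference of hsa-miR-1275 between the assays from 1.75 to 2.52 and past the threshold. The share of hsa-miR-1246 ranged from 1.37 to 2.29 on the log2 scale when 1 library was left out. It passed only without IP 1 (exact permutation test, unadjusted p = 0.0317). The log2 ratio of hsa-miR-1246 to hsa-miR-1275 ranged from -1.21 to -0.47 and passed only without Input 3 (exact permutation test, unadjusted p = 0.0476).

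Over all miRNAs, enriched against depleted calls were 129 against 109 for Red against Ctrl and 183 against 200 for IP against Input. They became 175 against 46 and 232 against 164 with total-count factors, which moved the median log2 of IP against Input from 0.02 to 0.38. With 10 counts demanded in every library they were 71 against 71 and 128 against 116. For Red against Ctrl, edgeR called 167 depleted and thinned Ctrl counts left 62. Leaving out 1 library left 62 to 86 depleted, with the lowest without Ctrl 2. The causes of these shifts were not tested, except that stricter filters test fewer miRNAs.

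Fitted with no filter on low counts, hsa-miR-1246 had a log2 of 5.89 for Red against Ctrl (DESeq2, adjusted p = 0.000686), and hsa-miR-1290 had an SE of 4.98 and no adjusted p. Depth limits hsa-miR-1290 throughout and hsa-miR-1246 in Ctrl, where thinning to the Red depth left 0 counts in both libraries.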

Other observations

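hsa-miR-6724-5p, whose hairpins begin on the last base of the hsa-miR-1275 matches on chromosome 21, was enriched in both assays. Its counts were 164 and 244 in Ctrl, 116 and 132 in Red, and 168, 236, 280, 252 and 212 in Input 1 to 5. In IP 1 to 5 they were 364, 508, 276, 320 and 216. The log2 fold change was 2.47 ± 0.43 (SE) for Red against Ctrl and 1.505 ± 0.29 (SE) for IP against Input (DESeq2, adjusted p = 4.39e-08 and 8.47e-07). All 14 of its counts were multiples of 4, the number of its hairpin genes. The SEs and adjusted p take each count as a separate read. Whether reads were counted once per hairpin gene was not tested.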
